A study of Mus musculus with 4 samples.

Results

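Expression of 7 genes of cholesterol synthesis and transport was examined in mouse hematopoietic stem and progenitor cells (HSPCs) with and without deletion of Chaf1b, which encodes a subunit of the histone chaperone CAF-1. The genes are Hmgcs1, Idi1, Fdft1, Sqle and Lss, which encode synthesis enzymes, Insig1, a brake on synthesis, and Abca1, a cholesterol exporter. They were chosen by name, with earlier results of these data known. Although the group is called synthesis and uptake genes, none of the 7 encodes an uptake receptor, and the uptake genes were taken from the wider pathway lists below. Of the 7, 6 were matched to one of the 43629 gene identifiers counted and all 6 were among the 16500 genes tested. The identifier of Hmgcs1 was not paired with its symbol by the tables used, and Hmgcs1 expression was not analysed here.

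All 4 libraries came from CD117+ HSPCs of C57Bl/6 mice homozygous for the floxed allele, Chaf1b (fl/fl), which the methods of the study give as 8 to 12 weeks old and of both sexes. Control cells (n = 2) received the empty MIGR1 retroviral vector and Chaf1b-deleted cells (n = 2) received MIGR1-Cre, so that the floxed allele was intact in the former and open to recombination in the latter. The cells were cultured in StemSpan SFEM II medium with 50 ng/mL SCF, 10 ng/mL IL-3, 20 ng/mL IL-6 (by the labels, while the methods of the study state a lower dose) and LDL at a dilution of 1 in 200, and eGFP-positive cells were sorted 48 h after spinfection. The medium of both groups thus held a source of cholesterol, and no library came from cells without it. The labels name neither the animal nor the culture of a library, so the p-values measure only the spread between these libraries, which may be technical in part.

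Mammalian cells make cholesterol from acetyl-CoA through the mevalonate pathway, which ends in isoprenoid units, and then through squalene and lanosterol. When sterols are scarce, SREBP2 is released from the endoplasmic reticulum and activates the genes of these enzymes. When sterols are plentiful, INSIG proteins hold SREBP2 and its escort SCAP back, while oxysterols activate LXR, which raises the genes of export. In the blood system, cholesterol export by ABCA1 and ABCG1 is known to restrain the response of progenitors to growth factors.

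The libraries held between 18.5 M and 25.4 M counts on genes. Chaf1b itself had 80.3 and 57.9 CPM (counts-per-million, raw counts scaled to the total on genes) in the controls and 16.1 and 17.9 in the deleted libraries. It fell by 2.01 on the log2 scale (SE 0.25, adjusted p = 0.033, edgeR quasi-likelihood test, Benjamini-Hochberg adjusted), so that transcript remained after deletion. Of the progenitor markers, 6 of 6 were detected in every library, with a summed level between 3024 and 4276 CPM, led by Mpo and Myb. Neutrophil genes, led by S100a9 and Ngp, summed to 45080 to 65430 CPM, so the labelled progenitor cells also carried the transcripts of maturing granulocytes. A pair of libraries stood apart. Chaf1b-deleted 1 had 2097 CPM over 16 interferon-stimulated genes, led by Ddx58 and Irf7, against 335 to 404 in the other 3. It also had 7905 counts of Xist, a transcript of female cells, against 23 to 33. By Xist, the deleted libraries thus did not come from the same animals, and sex was not balanced between the groups. Control 1 had counts in 39.7% of the 1036 olfactory receptor genes, which these cells are not known to use, against 4.05% to 11.8% in the other 3.

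In the reference sequence, the 250 bases upstream of the gene start (RefSeq, build GRCm38.p6) were available for 5 of the 7 genes, Hmgcs1, Idi1, Lss, Insig1 and Abca1. A sterol regulatory element spelled TCACNCCAC, the kind of site bound by SREBP2, was found on either strand in 1 of the 5, Hmgcs1, and in 1.05% of all 32851 promoters. The NF-Y box CCAAT, a frequent partner site of SREBP2, was found in 4 of the 5, the exception being Abca1, and in 33.8% of all promoters. The E-box CACGTG was found in Insig1 and Abca1 (6.02% of all promoters) and the Sp1 box GGGCGG in 5 of the 5 (32.7%). The direct repeat of AGGTCA with a spacer of 4 bases, a consensus spelling of the LXR element, was found in 0 of the 5. Over all promoters the share was 0.0152%. Each motif was searched only in the spelling given. Sterol regulatory elements with other letters, or LXR elements with other letters in either repeat, were not looked for. Such elements are not marked below. A match is a description of the letters only. Shown here are the upstream regions of Lss and Abca1, the genes with the widest spread between libraries in opposite directions, that of the regulator Insig1, and the stretch of Hmgcs1 around its sterol regulatory element. Each runs 5′ to 3′ on the strand of the gene, and capitals mark matches to the sterol regulatory element, the NF-Y box or the E-box on either strand (ATTGG is CCAAT on the other strand). In the sequences shown, these matches do not overlap one another. The regions are chr13:119690194-119690243 (plus) for Hmgcs1, chr10:76531355-76531604 (plus) for Lss, chr5:28071162-28071411 (plus) for Insig1 and chr4:53159896-53160145 (minus) for Abca1.
Hmgcs1: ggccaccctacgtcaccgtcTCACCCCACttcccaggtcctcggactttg
Lss: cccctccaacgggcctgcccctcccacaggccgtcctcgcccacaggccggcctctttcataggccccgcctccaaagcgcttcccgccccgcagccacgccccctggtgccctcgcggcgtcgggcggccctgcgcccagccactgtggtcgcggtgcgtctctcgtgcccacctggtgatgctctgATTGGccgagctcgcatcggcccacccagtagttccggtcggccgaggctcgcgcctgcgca
Insig1: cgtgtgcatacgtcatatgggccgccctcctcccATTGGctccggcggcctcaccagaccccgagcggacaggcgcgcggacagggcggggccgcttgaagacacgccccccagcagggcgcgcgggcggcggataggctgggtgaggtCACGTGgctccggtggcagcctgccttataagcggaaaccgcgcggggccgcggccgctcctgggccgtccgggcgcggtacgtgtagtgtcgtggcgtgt
Abca1: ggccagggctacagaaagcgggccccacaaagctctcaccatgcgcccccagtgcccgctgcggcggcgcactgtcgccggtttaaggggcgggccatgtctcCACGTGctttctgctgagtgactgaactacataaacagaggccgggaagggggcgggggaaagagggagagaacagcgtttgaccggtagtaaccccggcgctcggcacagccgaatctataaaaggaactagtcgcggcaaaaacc

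The first question was whether these genes changed after Chaf1b deletion. None of the 6 genes passed the test of at least 1.5-fold and an adjusted p under 0.05 (edgeR's quasi-likelihood test), by which 0.37% of all genes tested were called higher and 0.00606% lower. Of the 6, 0 had an unadjusted p under 0.05, against 9.15% of all genes on the higher side and 3.1% on the lower side. By the fitted values, 3 were higher and 3 lower in the deleted libraries, and the median log2 fold change of the 6 was 0.02, beside -0.03 over all genes tested. The groups overlapped for 6 of 6 genes, while both deleted libraries lay above both controls for 21.4% of all genes and below for 22.9%. In bulk RNA, fewer cells of a type and less RNA per cell cannot be told apart.

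Idi1 encodes isopentenyl-diphosphate isomerase, which makes the activated isoprene unit of the mevalonate pathway. The gene (ENSMUSG00000058258) lies on chr13:8884852-8891641 of mm9, plus strand. It had 145 and 81 counts in the controls and 134 and 132 in the deleted libraries. In CPM, control 1 had 6.38 (5.42 to 7.5, a 95% Wilson interval) and control 2 had 3.19 (2.57 to 3.96), while the deleted libraries had 5.69 (4.81 to 6.74) and 7.15 (6.03 to 8.47). These intervals cover counting error only. Control 2 alone was low, and control 1 lay between the deleted libraries. The log2 fold change was 0.44 (SE 0.43, adjusted p = 0.751, same test), with a 95% interval from 1.48-fold lower to 2.72-fold higher. For Idi1, 85.3% of the exonic stretches of 31 bases are repeated elsewhere in the genome, which makes its counts uncertain.

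The next 3 enzymes turn the isoprenoid farnesyl diphosphate into lanosterol, and control 1 was the highest library for each of them. Fdft1, squalene synthase (ENSMUSG00000021273, chr14:63763990-63796630, minus strand), had 75.3 and 52.2 CPM in the controls and 49.5 and 57.0 in the deleted libraries. Control 1 was high, and the other 3 libraries lay close together, with control 2 between the deleted ones in CPM and below them after TMM normalization. The log2 fold change was -0.24 (SE 0.24, adjusted p = 0.756, same test), and its interval ran from 1.74-fold lower to 1.25-fold higher. Fdft1 overlaps Ctsb on the other strand, which had 214 and 295 CPM in the controls, against 331 and 255 in deleted cells, and 29% of its exonic stretches occur elsewhere. The methods of the study name a stranded library kit for HSPCs. Whether strand was used in the counting is not given in the sources used here, so reads of Fdft1 and Ctsb in their overlap may not be separated.

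Sqle, squalene epoxidase, catalyses a rate-limiting step after squalene (ENSMUSG00000022351, chr15:59146632-59162747, plus strand). It had 186 and 131 CPM in the controls and 129 and 148 in the deleted libraries, again with control 1 high and control 2 between the deleted libraries in CPM and below them after TMM normalization. Its control mean was 158 ± 38.8 (SD, n = 2) and its deleted mean 139 ± 13.6 (SD, n = 2). The log2 fold change was -0.17 (SE 0.24, adjusted p = 0.824, same test), and the interval ran from 1.65-fold lower to 1.29-fold higher.

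Lss, lanosterol synthase, closes the ring system of the sterols (ENSMUSG00000033105, chr10:75994333-76019883, plus strand). It had the lowest fitted value of the 6 genes, with 181 and 88.6 CPM in the controls and 75.5 and 113 in the deleted libraries. Control 1 was 2.05-fold above control 2, and the deleted libraries, which lay on either side of control 2, differed 1.5-fold. The log2 fold change was -0.51 (SE 0.34, adjusted p = 0.615, same test), with an interval from 2.48-fold lower to 1.22-fold higher.

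Insig1 holds the SREBP2 escort SCAP in the endoplasmic reticulum and is itself a target of SREBP2 (ENSMUSG00000045294, chr5:28397952-28405201, plus strand). Its relative range over the libraries was the narrowest of the 6 genes in CPM. After TMM normalization it was not, with 108 and 78.9 in the controls and 119 and 96.7 in the deleted libraries. In CPM, Insig1 had 107 and 80.2 in the controls and 110 and 103 in the deleted libraries, so that control 2 alone was low. The means were 93.8 ± 19.2 and 106 ± 5.01 (SD, n = 2 each), and the log2 fold change was 0.21 (SE 0.24, adjusted p = 0.789, same test), with an interval from 1.26-fold lower to 1.69-fold higher. For Insig1, 47.7% of the exonic stretches occur elsewhere in the genome.

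Abca1, which passes cellular cholesterol to apolipoproteins and is a target of LXR, had the widest spread (ENSMUSG00000015243, chr4:53043659-53172767, minus strand). It had 44 and 382 counts in the controls and 178 and 243 in the deleted libraries, or 1.94 (95% Wilson interval 1.44 to 2.6), 15 (13.6 to 16.6), 7.56 (6.53 to 8.76) and 13.2 CPM (11.6 to 14.9). Control 1 was the lowest and control 2 the highest of the 4 libraries, and both deleted libraries lay between them. The controls differed 7.77-fold, the deleted libraries 1.74-fold. The log2 fold change of 0.29 (SE 0.76, adjusted p = 0.92, same test) therefore had a wide interval, from 2.77-fold lower to 4.17-fold higher.

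**Figure D1:**
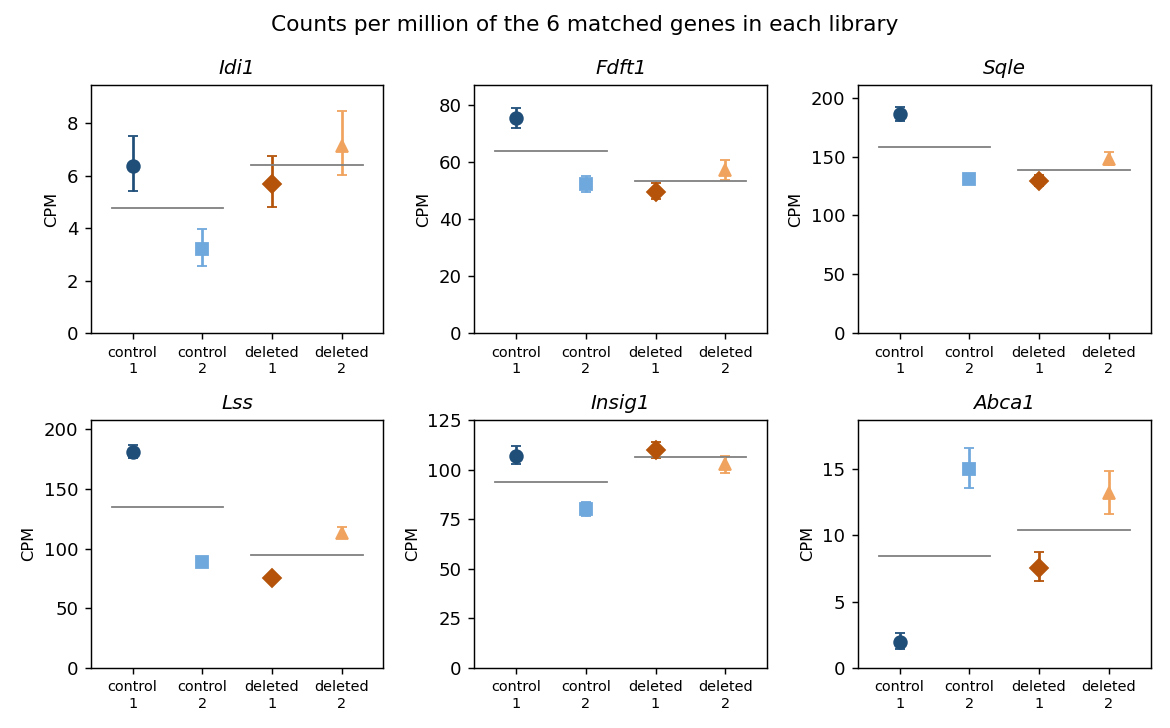
CPM (vertical axes, each from 0) of Idi1, Fdft1, Sqle, Lss, Insig1 and Abca1 in the 2 control and 2 Chaf1b-deleted libraries. Bars are 95% Wilson intervals of the counts and grey lines are group means; the groups overlap in 6 of 6 panels, and for Abca1 both deleted libraries lie between the controls.

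Per kilobase of exon, Insig1 had the highest mean level over the 4 libraries (37.8 CPM per kb), followed by Sqle (26.8), Fdft1 (20.5), Lss (10.6), Idi1 (1.95) and Abca1 (0.909). By library, Insig1 ranged from 30.3 to 41.4 CPM per kb and Sqle from 23.3 to 33.5, so these neighbours overlapped. Sqle and Fdft1 (17.3 to 26.3) overlapped as well, as did Idi1 (1.11 to 2.49) and Abca1 (0.187 to 1.45). The ranges of Fdft1 and Lss (7 to 16.8) did not overlap, nor did those of Lss and Idi1. Within each library, Insig1 was above Sqle, Sqle above Fdft1 and Fdft1 above Lss. The share of exonic stretches of 31 bases found elsewhere in the genome was 85.3% for Idi1, 47.7% for Insig1 and 29% for Fdft1. It was 3.34% for Sqle, 3.16% for Lss and 0% for Abca1. Lengths are those of all annotated exons merged, 10787 bases for Lss. The part of repeated stretches and of merged lengths in this order was not tested.

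The next question was whether the enzymes of the whole pathway changed. The list of 20 enzymes from acetyl-CoA to cholesterol includes Hmgcs1, Idi1, Fdft1, Sqle and Lss. Of the 20, 19 were matched and tested, and 0 were called in either direction. The fitted values were lower for 15 and higher for 4, with a median log2 fold change of -0.29. Over all genes tested, 52.5% were lower and the median was -0.03. Both deleted libraries lay below both controls in CPM for 5 of the 19, Mvd, Tm7sf2, Sc5d and Dhcr7 among them, and above for 0, beside 22.9% and 21.4% of all genes tested. After TMM normalization the first number was 4.

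Late in the pathway, Tm7sf2, a sterol reductase, had 25.7 and 24.2 CPM in the controls, against 12.7 and 18.5 in deleted cells (log2 fold change -0.67, SE 0.25, adjusted p = 0.329, same test). Dhcr7, which makes cholesterol from its immediate precursor, had 53.0 and 37.6 CPM in the controls, against 24.0 and 33.9 in deleted cells (log2 fold change -0.64, SE 0.25, adjusted p = 0.361, same test). Tm7sf2 and Dhcr7 were the 2 of 19 enzymes lower at an unadjusted p under 0.05, and neither passed the adjusted test, while 3.1% of all genes tested were lower at that p.

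By the median over the 19 enzymes, the difference between the controls was larger than that between the groups. This did not hold for every enzyme, with Tm7sf2 and Dhcr7 among the exceptions. Control 1 was above control 2 for 19 of 19 enzymes, with a median log2 ratio of 0.55, beside 0.05 over all genes tested. It was the highest of the 4 libraries for 18 of the 19 in CPM, the exception being Idi1, and for 16 of the 19 after TMM normalization, while 27.6% and 27.8% of all genes tested had control 1 highest on the same scales. Summed over the 19 enzymes, control 1 had 2442 CPM, control 2 had 1719, and the deleted libraries had 1710 and 1885. Without control 1, 8 of the 19 enzymes were lower and the median log2 fold change was 0.09. Without control 2, 18 were lower and the median was -0.50. Control 1 also had the lowest sum of macrophage markers (887 CPM over 10 genes, mostly Itgam, against 1337 to 1770). It had the highest sum of erythroid markers (86.9 CPM over 6 genes, against 40.6 to 57.0), besides its olfactory receptor counts. Control 1 was the highest library for 4 of these 6. The globin genes Hba-a1 and Hbb-b1 were instead highest in Chaf1b-deleted 1, with 2.55 and 10.1 CPM, against 0.704 and 3.78 in control 1. The part of these differences in the enzyme levels was not tested.

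**Figure D2:**
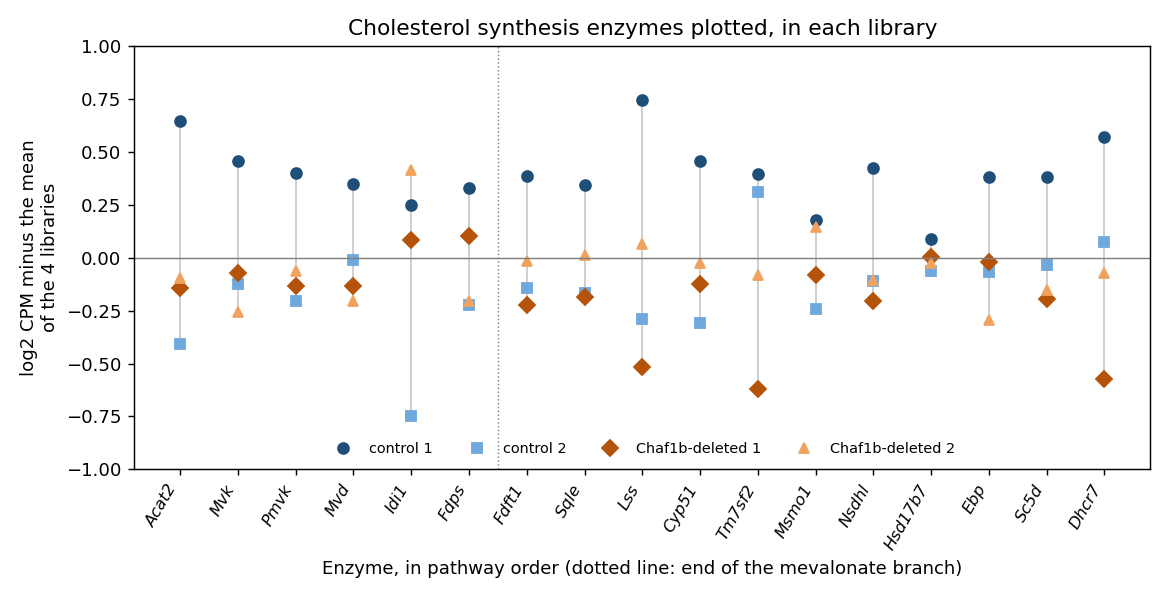
For 17 of the 19 synthesis enzymes, in pathway order, the log2 CPM of each library minus the mean of the 4 libraries. Control 1 (dark circles) is the highest library for 16 of the 17 drawn, all except Idi1, and lies above control 2 (light squares) for 17 of 17.

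Each library was left out in turn to see which one set the direction of the fold changes. Without control 1, the log2 fold changes of Sqle (0.11), Fdft1 (0.05) and Lss (0.10) were above 0, and that of Abca1 was -0.53. Without control 2, the values of Sqle (-0.42), Fdft1 (-0.49) and Lss (-0.95) were lower than with all libraries. In the same fit, which holds 1 control library, the log2 fold change of Abca1 was 2.40. Insig1 was at -1.1e-03 without control 2. Without Chaf1b-deleted 2, Abca1 was at -0.03 and the other 5 genes kept their direction. Without Chaf1b-deleted 1, the library with the interferon-stimulated transcripts, the 6 directions were as with all libraries.

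**Figure D3:**
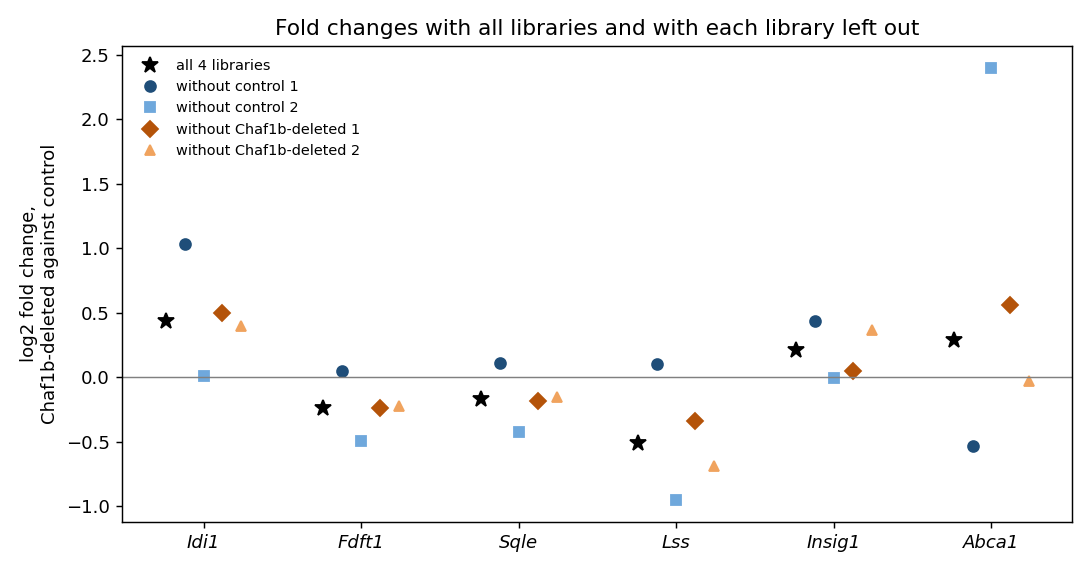
Log2 fold change between Chaf1b-deleted and control HSPCs (vertical axis) of the 6 genes, from all 4 libraries (stars) and with each library left out (other symbols). Leaving out control 1 puts Sqle, Fdft1 and Lss above 0 and Abca1 at -0.53, and leaving out control 2 puts Abca1 at 2.40.

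Of the genes that control SREBP, 0 of 7 were called, with 4 higher and 3 lower by the fitted value (median log2 fold change 0.12). Srebf2, which encodes SREBP2, had the highest value. It had 199 and 210 CPM in the controls, against 211 and 299 in deleted cells (log2 fold change 0.33, SE 0.21, adjusted p = 0.606, same test), so that deleted library 2 alone stood out. Mbtps2, a protease that frees SREBP2 from the membrane, had the lowest (log2 fold change -0.19, SE 0.24, adjusted p = 0.803, same test). In fatty acid synthesis, which SREBP proteins also control, 0 of 9 genes were called and 6 were lower. Control 1 was the highest library for 8 of these 9, beside 27.6% of all genes tested. Acaca, acetyl-CoA carboxylase, had 85.9 and 75.0 CPM in the controls, against 46.0 and 62.1 in deleted cells (log2 fold change -0.56, SE 0.21, adjusted p = 0.334, same test) and was the 1 gene of the list with an unadjusted p under 0.05. For Acaca, 67.9% of the exonic stretches occur elsewhere in the genome. The highest and lowest values of the list were those of Me1 (0.81), which supplies reducing power, and Scd1 (-0.71), a desaturase.

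Of the genes of uptake and lysosomal release, 0 of 11 were called, with 7 higher and 4 lower (median log2 fold change 0.15). In this list, 3 of the 11 were higher at an unadjusted p under 0.05, as were 9.15% of all genes tested, among them Mylip, whose product marks lipoprotein receptors for degradation, and Lrp1, a scavenging lipoprotein receptor. Mylip had 15.9 and 22.7 CPM in the controls, against 32.4 and 31.4 in deleted cells (log2 fold change 0.76, SE 0.26, adjusted p = 0.289, same test). For Lrp1 the controls differed more, with 31.7 and 103 CPM, against 134 and 162 after deletion (log2 fold change 1.17, SE 0.46, adjusted p = 0.358, same test). Its log2 fold change was 0.55 without control 1 and 2.23 without control 2. Vldlr, the very low density lipoprotein receptor, had the lowest value (-0.75), with 18.6 and 54.6 CPM in the controls and 11 and 33.2 in deleted cells. Without control 1, the log2 fold change of Vldlr was -1.32.

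Of the efflux and LXR genes, 0 of 8 were called. By the fitted value 7 of the 8 were higher (median log2 fold change 0.26), and the exception was Lpcat3, an LXR target that remodels phospholipids, at -0.12. Without control 1, the split was 4 higher and 4 lower. Abcg1, the exporter that acts beside Abca1, had 26.1 and 52.1 CPM in the controls, against 83.0 and 70.7 in deleted cells. Both deleted libraries were thus above both controls, with a log2 fold change of 1.01 (SE 0.33, adjusted p = 0.276, same test) that ranged from 0.60 to 1.58 with each library left out. Abcg1 and Mylip, which is an LXR target as well, were the 2 of the 8 higher at an unadjusted p under 0.05, beside 9.15% of all genes tested.

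Of the 6 genes listed for cholesterol esterification and oxysterols, 5 were tested and 0 called, and Cyp7b1 had too few counts. The 2 of the 5 genes higher at an unadjusted p under 0.05, beside 9.15% of all genes tested, encode enzymes that make oxysterols, the ligands of LXR. Ch25h, cholesterol 25-hydroxylase, had 2 and 7 counts in the controls, against 27 and 19 in deleted cells, and Cyp27a1, the sterol 27-hydroxylase, had 39 and 98 in the controls, against 196 and 205 in deleted cells. The log2 fold change of Ch25h was 2.56 (SE 0.73, adjusted p = 0.214, same test) and that of Cyp27a1 1.81 (SE 0.45, adjusted p = 0.163, same test), the smallest adjusted p of the 57 pathway genes tested. With each library left out, Ch25h stayed between 2.00 and 3.56 and Cyp27a1 between 1.35 and 2.49. Dendritic cell markers were higher in the same libraries. Over 6 genes, led by Ccr7 and Flt3, they summed to 16.9 and 28.1 CPM in the controls and 102 and 76 in deleted cells. Of the 6, 5 had an unadjusted p under 0.05. Flt3, counted among the progenitor markers as well, had 4.66 and 5.31 CPM in the controls and 19.3 and 22.7 in deleted cells. It was the 1 of the 6 called higher (log2 fold change 2.09, SE 0.28, adjusted p = 0.0383, same test), beside 0.37% of all genes tested. The B and T lymphoid markers summed to 10.6 and 10.9 CPM in the controls and 21.5 and 19.6 in the deleted libraries. The part of these markers in the oxysterol enzyme and efflux gene levels was not tested. Soat2, an enzyme that stores sterol as ester, had the lowest value of this list (-0.15). Over all 57 pathway genes tested, an unadjusted p under 0.05 was reached by 6 on the higher and 3 on the lower side, and both deleted libraries lay above both controls for 12 and below for 12 in CPM, or 11 and 9 after TMM normalization. Over all genes tested, these shares were 9.15% and 3.1% at that p, and 21.4% and 22.9% by position in CPM.

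**Figure D4:**
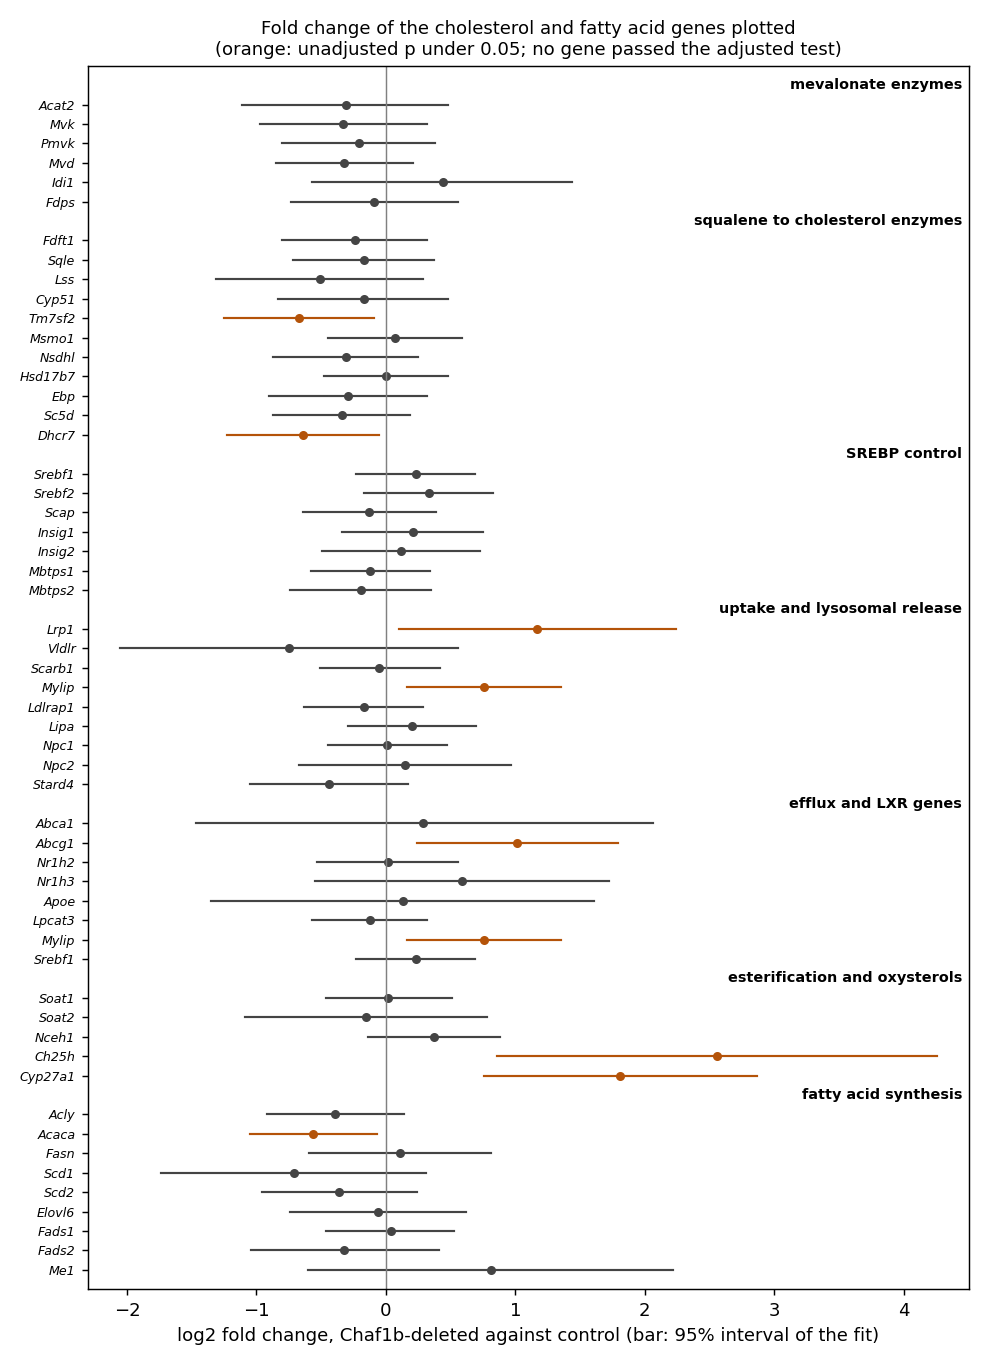
Log2 fold change (horizontal axis) with its 95% interval for 53 of the 57 tested genes of the 7 pathway lists, positive where Chaf1b-deleted HSPCs were higher. The 8 genes in orange, Tm7sf2, Dhcr7, Lrp1, Mylip (drawn in both its lists), Abcg1, Ch25h, Cyp27a1 and Acaca, have an unadjusted p under 0.05, and 0 of those drawn passed the adjusted test.

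Abca1 and several genes of this kind are also used by macrophages, so macrophage markers were read beside them. Over the 10 markers, led by Itgam and Csf1r, the summed level was 887 CPM in control 1 and 1505 in control 2. It was 1770 in Chaf1b-deleted 1 and 1337 in Chaf1b-deleted 2, and 0 of the markers were at 0 in any library. Itgam alone made up most of each sum, with 706 and 975 CPM in the controls and 1317 and 989 in the deleted libraries. It encodes CD11b, which the study also uses as a neutrophil marker, so these sums are not of macrophage transcripts alone. Control 1 was the lowest library for 7 of the 9 markers tested, as it was for Abca1 and for 20.9% of all genes tested. The markers did not share 1 pattern in Chaf1b-deleted 2. There C1qa, a complement gene typical of tissue macrophages, had 0.433 CPM, against 0.66 in control 1, 23.2 in control 2 and 10.6 in Chaf1b-deleted 1. By contrast, Mrc1 had 46 CPM in Chaf1b-deleted 2 and 22.3 in control 1, Csf1r had 89.8 and 59.5, Cd68 had 67.7 and 39.1, and Cd14 had 49.7 and 15.9. Apoe, an apolipoprotein gene of macrophages, had 5.32, 29.0, 14.9 and 22.4 CPM, the order of Abca1. The part of these markers in the Abca1 levels was not tested.

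**Figure D5:**
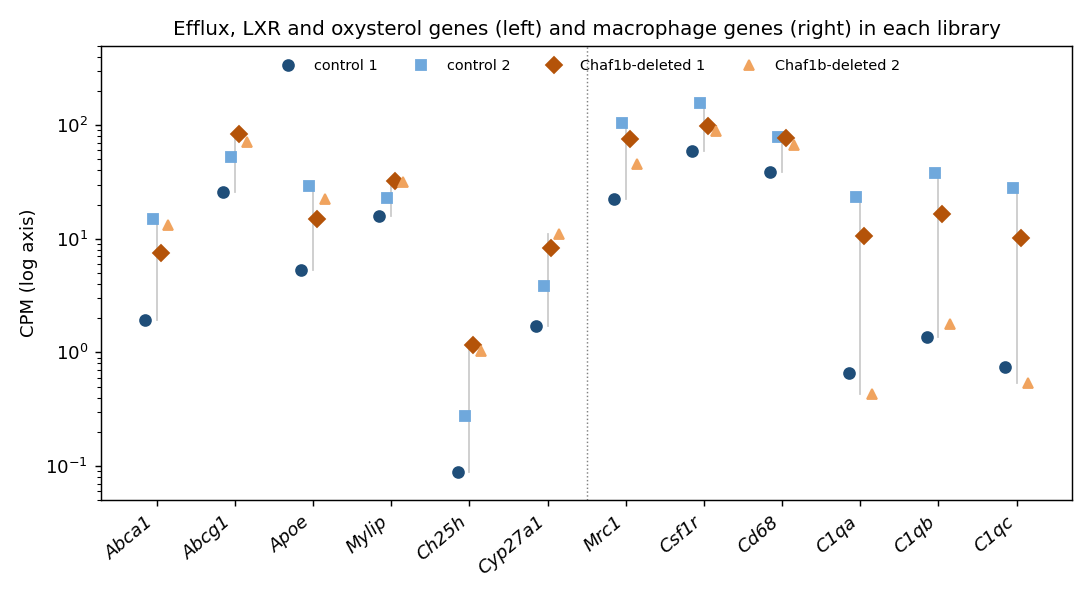
CPM on a log axis of 6 efflux, LXR and oxysterol genes (left) and 6 macrophage genes (right) in each library. Control 1 is the lowest of the 4 libraries for Abca1, Abcg1, Apoe, Mylip, Ch25h, Cyp27a1, Mrc1, Csf1r, Cd68 and C1qb. C1qa (0.433 CPM) and C1qc (0.541 CPM) are lowest in Chaf1b-deleted 2.

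Finally, the genes whose pattern over the 4 libraries was nearest to that of the members were ranked by Euclidean distance between centred log2 CPM after TMM normalization. The mean profile of Sqle, Idi1, Fdft1 and Lss was 0.43 and -0.36 in the controls and -0.10 and 0.03 in the deleted libraries. The nearest gene was Snhg12, a small nucleolar RNA host gene (distance 0.0295), and the 10 nearest included Vegfb, Ube2e2, Dph2, Zfp934, Fhit, 2010204K13Rik and Thumpd2, besides 2 identifiers without a name. None of the other matched synthesis enzymes was among the 10. The profile of Abca1 was -1.88 and 0.99 in the controls and 0.15 and 0.74 in the deleted libraries. After an identifier without a name (distance 0.303), its nearest genes were Tnfrsf9 (0.366), Fblim1 (0.426), Apoe (0.482) and Apol8 (0.523). With a prior count of 0.5 in place of 2, 9 of the 10 genes nearest to the enzymes were kept, and 2 of the 5 nearest to Abca1. With 4 libraries and 16500 genes, a small distance is a description of these libraries.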

How the data were processed

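RNA-seq counts of 4 HSPC libraries were used, 2 control and 2 Chaf1b-deleted, grouped by the sample labels. The authors aligned reads to mm9 with STAR and used HTSeq-count to count them per gene. The deposited values are these raw counts, not normalized, in 1 table per library. The annotation release and strand setting are not given in the sources used here. Reads outside genes (35.8% to 48.3% of reads on genes, outside genes or ambiguous) and ambiguous reads were left out of library sizes. Of the identifiers, 33068 were named from the NCBIM37 (mm9) annotation, whose coordinates are counted from 1. Unnamed identifiers hold 1.6% to 3.12% of the counts. Stretches of 31 bases found elsewhere in the genome were counted from the reference sequence. Promoters are those of RefSeq on GRCm38.p6, and no coordinate was converted.

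Differential expression was computed over all genes with edgeR 4.0.16 and limma 3.58.1 in R 4.3.3. A minimum count of 10 in edgeR's filter left 16500 genes. TMM factors were 0.925 to 1.06, and glmQLFit and glmQLFTest were run two-sided without a covariate (common dispersion 0.0763, prior degrees of freedom 5.68). Called genes had at least 1.5-fold change, the threshold of the study, and a Benjamini-Hochberg adjusted p under 0.05. The method was tested on simulated data. Intervals are those of the fit at 95%, or Wilson intervals of counts, which cover counting error only since reads carry no molecular identifiers. A count of 0 allows up to 3 counts, 0.118 to 0.162 CPM.

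The members and lists were chosen with earlier results of these data known. In each pathway list the genes named are those called, those with an unadjusted p under 0.05, and those with the highest and lowest log2 fold change. Chaf1b and the genes nearest in pattern are named as well, and of the other lists the genes with the highest level. Some genes of the pathway lists enter the counts but are not reported here. Ctsb, Xist, Cyp7b1, Mvd, Sc5d, Hba-a1, Hbb-b1, C1qa, C1qb, C1qc, Mrc1, Cd68 and Cd14 were named once their values had been seen. The alternatives were DESeq2's size factors, library size only or upper-quartile normalization, no low-count filter, 10 counts required in every library, the exact test, the likelihood ratio test and the newer quasi-likelihood method of edgeR, DESeq2 1.42.0, the replicate number as a block, stricter and looser thresholds, another prior count (0.5 in place of 2) for the pattern ranking, and each library left out in turn. The count of enzymes lower was recomputed under these after seeing the data. Same-numbered libraries did not deviate together (correlation 0.0133), so the numbers were not taken to pair them.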

Additional observations from a re-analysis of the deposited data

How the results depend on the processing

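The number of the 6 genes called was 0 under every alternative that kept all 4 libraries, and the log2 fold changes of all 6 then kept their sign, also under the 3 other normalizations. With the replicate number as a block, 0 of the 6 were called and Abca1 was at 0.86, while over all genes 14 were called higher and 0 lower, against 61 and 1. Since the correlation of same-numbered libraries was 0.0133 and the labels do not pair them, the block removes a shared number only. The number of pathway genes called, 0 with all libraries, was 4 without a low-count filter (Abcg1, Cyp27a1, Lrp1 and Ch25h), 2 with edgeR's exact test and 2 with its likelihood ratio test (Cyp27a1 and Ch25h), and 1 with DESeq2 (Cyp27a1). Over all genes these settings called 808, 537, 583 and 471 higher and 79, 37, 40 and 32 lower, and the cause was not tested. Requiring 10 counts in every library gave 3 called higher and 0 lower, DESeq2's size factors 27 and 1, library size only 30 and 1, and 2-fold with an adjusted p under 0.01 0 and 0.

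With a library left out, a group held only 1 library, so fold changes are given and calls are not. Without control 2, the log2 fold changes of Abca1, Apoe, Abcg1, Cyp27a1 and Lrp1 were 2.40, 1.80, 1.58, 2.49 and 2.23. That of Vldlr was -1.32 without control 1. Without control 1, Sqle was at 0.11, Fdft1 at 0.05, Lss at 0.10 and Abca1 at -0.53. Insig1 ranged up to 0.44 (without control 1) and was at -1.1e-03 without control 2, which also gave Sqle -0.42, Fdft1 -0.49 and Lss -0.95. Abca1 was at -0.03 without Chaf1b-deleted 2. Enzymes lower ranged from 8 (without control 1) to 18 of 19. Of the 15 genes nearest in pattern, the prior count of 0.5 kept 11, namely 9 of 10 for the enzymes and 2 of 5 for Abca1.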
